A study of Mus musculus with 20 samples.

Results

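The 9 amino acid transporter genes Slc7a5, Slc3a2, Slc7a6, Slc1a5, Slc38a1, Slc38a2, Slc1a4, Slc7a1 and Slc7a11 and the transcription factor gene Myc were followed through 12 RNA-seq libraries of mouse TH17 cells, the CD4 T cells that make interleukin-17. They were chosen by name, 10 gene rows of the 24862 in each count table, and all 10 were found in every table. All cells were of the C57BL/6 strain. TH17 cells of the central nervous system (CNS) were set against TH17 cells of the ileum, both sorted as GFP-positive cells from tissue. TH17(β) cells, grown from naive CD4 T cells with TGF-β1, IL-6 and antibodies that block IL-4 and IFN-γ, overexpressed c-Rel (Ad-c-Rel) or had the control treatment (Ad-control). TH17(23) cells, grown with IL-6, IL-1β, IL-23 and the same blocking antibodies, came from miR-21-/- or Control mice. Each group had 2 libraries. The labels used here do not name the reporter behind GFP, how the CNS cells were induced, what Ad stands for, or whether the replicates are from different mice, so p-values measure the spread between these libraries, which may be technical.

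A T cell that has been activated imports amino acids to build protein and to keep the kinase complex mTORC1 active. SLC7A5 joins the heavy chain SLC3A2 (CD98) to form the exchanger LAT1, which brings in leucine and other large neutral amino acids. SLC7A6 and SLC7A11 use the same heavy chain, and without it the light chains do not reach the cell surface in a stable form. Myc is induced by T cell receptor signals and raises many genes of transport, ribosome assembly and glycolysis in activated T cells, and leucine entry through SLC7A5 in turn sustains Myc protein.

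The libraries held 1.54e+07 to 3.67e+07 gene counts, and the 4 from the miR-21 cultures, at 3.28e+07 or more, were the deepest. Replicate 2 of each sorted tissue stood apart from replicate 1 at similar depth, with 11545 against 14224 genes detected in CNS and 10771 against 13927 in ileum, and the replicates' log2(CPM + 1) had an r of 0.945 (CNS) or 0.935 (ileum), while culture replicates had 0.992 to 0.998. Results with either library left out are given where a call changes. In the CNS the summed level of 9 TH17 markers was 1687 and 1449 CPM (gene counts scaled to the same total in each library, per 1000000), against 11562 and 12510 CPM in ileum, with none of the 9 at 0 in any library. The 20 myeloid and microglia markers summed to 38737 and 42465 CPM in CNS, against 5579 and 5922 CPM in ileum, and none was at 0 in these 4 libraries. The 8 neutrophil markers summed to 232 and 228 CPM in CNS, against 0.800 and 0.117 CPM in ileum, where Ngp, Ltf, Camp, Elane and Mpo were at 0 in both libraries. The 10 B and plasma cell markers summed to 352 and 359 CPM in CNS, against 4499 and 4363 CPM in ileum, and Ms4a1 and Pax5 were at 0 in both CNS libraries. The 8 epithelial markers reached at most 20.0 CPM in these 4 libraries. In the 8 cultured libraries the myeloid list summed to 127 to 281 CPM. Markers of other cell types thus differed by tissue in the sorted samples, and their part in the member genes' differences was not tested. In bulk RNA, fewer cells of a type and less RNA per cell cannot be told apart. The altered genes followed the labels. Rel, which encodes c-Rel, was at 57.5 and 61.9 CPM with Ad-c-Rel, against 10.8 and 7.02 CPM with Ad-control. Mir21a had 0 counts in both miR-21-/- libraries, against 25 and 20 counts in the Control libraries. Library preparation differed between the sorted cells and the miR-21 cultures, per the labels' protocols, so levels are compared across pairs as a description only.

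Across the 6 groups the heavy chain and its light chains did not follow the same order. Slc3a2 had its highest means in the sorted cells, at 765 CPM in CNS and 2203 CPM in ileum, and it was lowest in the miR-21-/- and Control TH17(23) cells, at 130.2 and 132 CPM, a 16.9-fold range. Slc7a5 had its highest mean in Control TH17(23) cells, at 103 CPM, where Slc3a2 was near its lowest, and its lowest in Ad-control cells, at 33.3 CPM. Slc7a6, an exchanger of neutral and cationic amino acids, stayed between 67.6 and 108 CPM in all 6 groups. The group means spanned 1.60-fold for Slc7a6 and 3.10-fold for Slc7a5, less than for the heavy chain.

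Slc1a5 encodes ASCT2, an exchanger of glutamine and other small neutral amino acids, and was ordered like Slc3a2, with means of 331 CPM in CNS and 541 CPM in ileum, 248 CPM with Ad-c-Rel and 224 CPM with Ad-control, and 114 CPM in miR-21-/- and 145 CPM in Control cells. Among neighbours in order of level, the miR-21-/- and Control cells alone overlapped. The sodium-coupled glutamine transporter Slc38a1 was highest in ileum, at 253 CPM, and the other 5 groups lay between 125 and 148 CPM, with each neighbour overlapping the next except Ad-c-Rel and Ad-control. Its relative Slc38a2 was at 274 CPM in CNS and 298 CPM in ileum, whose libraries overlapped, and was lowest in the TH17(β) cultures, at 89.3 CPM with Ad-c-Rel and 85.0 CPM with Ad-control. Slc1a4, which encodes the alanine, serine and cysteine transporter ASCT1, was scarce, with its highest group mean of 10.3 CPM in Control TH17(23) cells.

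Slc7a1, the main carrier of arginine and lysine into T cells, was at 35.9 CPM in CNS and 121 CPM in ileum, and at 72.8 CPM in miR-21-/- and 106 CPM in Control TH17(23) cells, with ileum and Control overlapping. It was at 17.7 CPM with Ad-c-Rel and 12.1 CPM with Ad-control. Slc7a11, the light chain of the cystine and glutamate exchanger, was nearly absent from cultured cells, with group means from 0 to 0.561 CPM, and was at 19.0 CPM in CNS and 2.64 CPM in ileum. Its 0 counts in the Ad-control libraries allow at most 0.195 and 0.151 CPM, the level of 3 counts. Myc had its lowest mean in CNS, at 72.1 CPM, apart from ileum at 163 CPM. The other 5 groups, with means from 163 to 251 CPM, overlapped from each to the next. CNS was not apart from all of them, since miR-21-/- replicate 2, at 78.7 CPM, lay between the CNS libraries at 48.2 and 95.9 CPM.

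**Figure D1:**
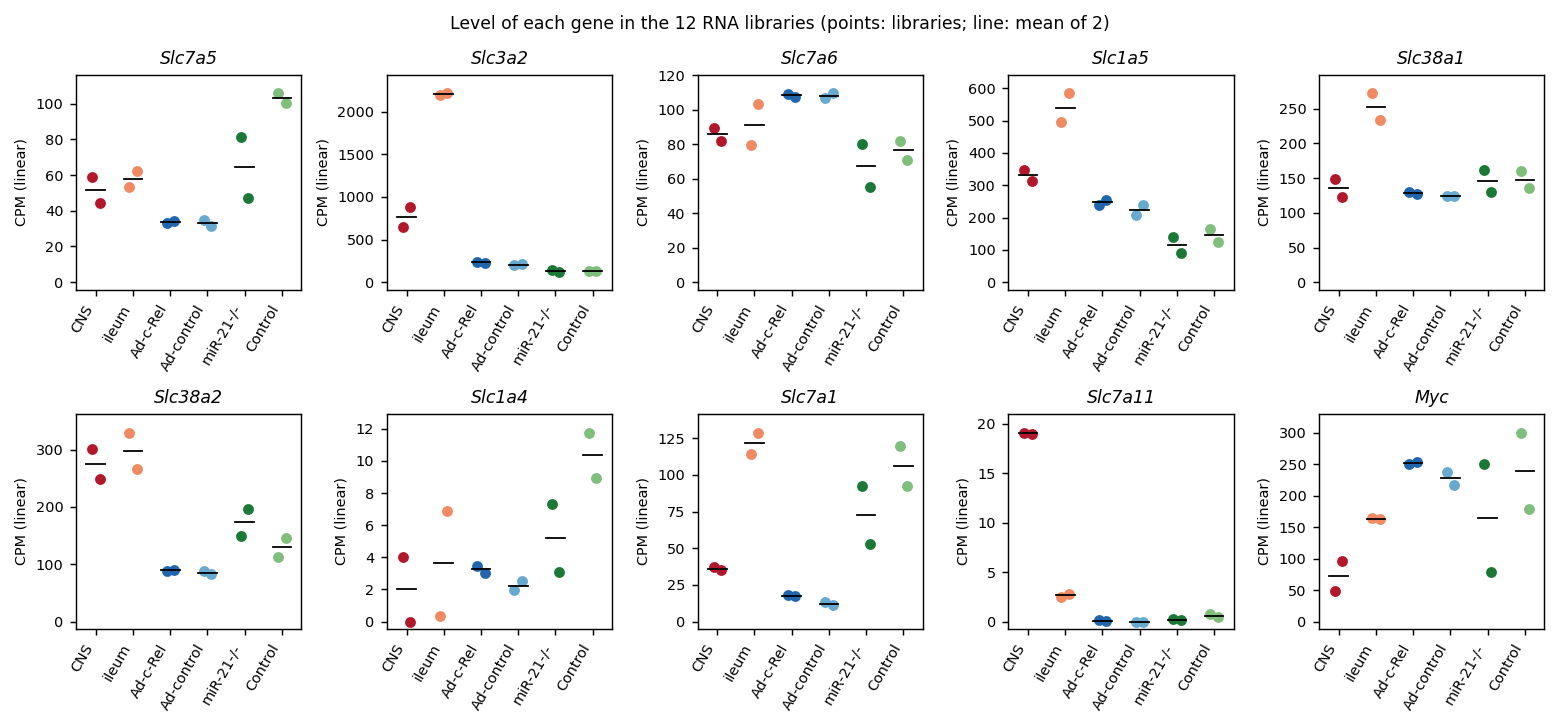
Level of each of the 10 genes in CPM (linear axis from 0) in the 12 libraries, with points for libraries and lines for the mean of 2. Slc3a2 stands highest in the ileum libraries, at 2194 and 2212 CPM, Slc7a11 in the CNS libraries, at 19.1 and 18.9 CPM, and Slc7a5 in the Control TH17(23) libraries, at 106 and 100.3 CPM.

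The genes whose log2(CPM + 1) was most like that of Slc7a5 over the 12 libraries, among 10144 with a mean of at least 5 CPM, were Adar, Zfp831, Gimap8, Iars2 and Zfp568 (Pearson r 0.939 to 0.950). Those most like Myc were Zbtb9, Zfp809, Ociad2, Gm14718 and Il4ra (r 0.867 to 0.898). These values describe 12 libraries that fall into 6 groups and were not all prepared alike, and none of the 10 member genes is among them.

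Because SLC7A5 and SLC3A2 form a single transporter, their counts were also set against each other within each library, where no scaling between libraries enters. The ratio is not corrected for transcript length, so only its change is read. There were 0.0921 and 0.0502 Slc7a5 counts for each Slc3a2 count in CNS, against 0.0244 and 0.0281 in ileum. The ratio was 0.136 and 0.149 with Ad-c-Rel, against 0.171 and 0.150 with Ad-control. In TH17(23) cells it was 0.592 and 0.385 in miR-21-/- libraries, against 0.775 and 0.787 in Control libraries. In each pair the ratios did not overlap, by a wide margin in CNS, where they were higher, and in miR-21-/- cells, where they were lower, and by a narrow one with Ad-c-Rel, where they were lower. The counts of Slc38a1 for each count of Slc38a2 were 0.495 and 0.498 in CNS, against 0.826 and 0.875 in ileum, which did not overlap. In the cultures this ratio did overlap, at 1.48 and 1.41 with Ad-c-Rel against 1.42 and 1.52 with Ad-control, and at 1.08 and 0.663 in miR-21-/- against 1.42 and 0.931 in Control libraries.

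**Figure D2:**
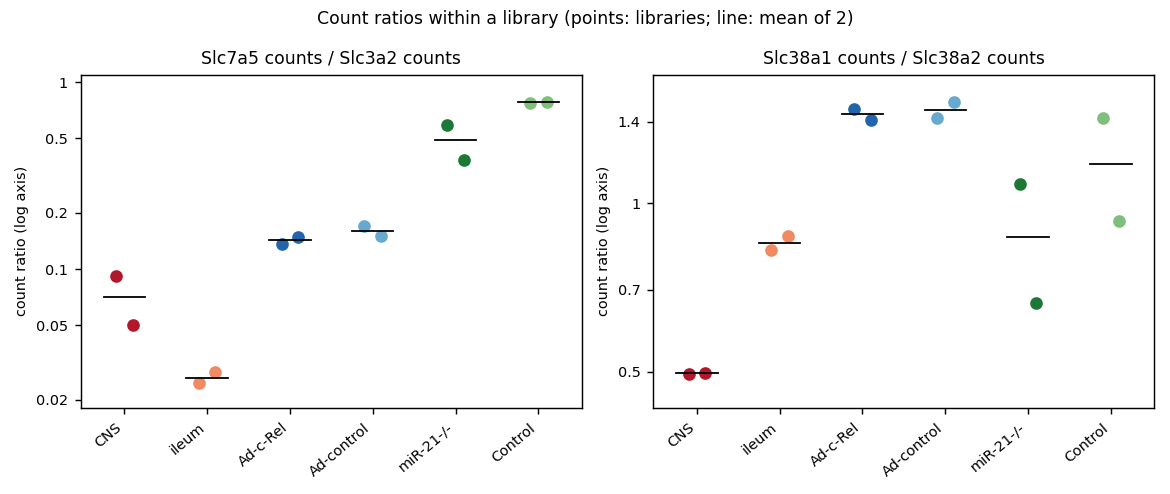
Count ratios within each library on log axes, Slc7a5 over Slc3a2 on the left and Slc38a1 over Slc38a2 on the right (points for libraries, lines for the mean of 2). The Slc7a5 to Slc3a2 ratio runs from 0.0244 in an ileum library to 0.787 in a Control TH17(23) library.

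The first comparison asks in which genes CNS and ileum TH17 cells differ. Slc3a2, Slc7a1, Slc38a1 and Slc1a5 were lower in CNS, and no member passed the threshold upward. Those are 4 of 10 members tested, where 9.66% of the 12038 genes tested were called and 5.66% were called lower (edgeR quasi-likelihood test, Benjamini-Hochberg adjusted p at or under 0.05). At an unadjusted p under 0.05 there was 1 member with a higher value, Slc7a11, where 11.4% of genes were higher, and DESeq2, which called 20.4% of the genes it adjusted, called 1 member higher and 5 lower. The median log2 fold change of the members was −0.97, beside 0.075 over all genes tested. Log2 fold changes are CNS over ileum after TMM scaling, which sets the libraries level on the bulk of their genes, with standard errors (SE) that restate the F test. CPM carry no TMM factor, and overlap between groups is judged in CPM here and below. The TMM factors were 1.08 and 1.06 in CNS and 0.918 and 0.948 in ileum.

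Slc3a2 was at 642 and 887 CPM in the CNS libraries, against 2194 and 2212 CPM in the ileum libraries. The groups were far apart, and the CNS libraries differed more from each other than the ileum libraries did. The log2 fold change was −1.72 (SE 0.185, adjusted p = 0.00628). Its partner Slc7a5, at 59.1 and 44.6 CPM in CNS against 53.5 and 62.2 CPM in ileum, overlapped between the tissues in CPM (−0.36, SE 0.293, adjusted p = 0.547). Slc7a6 overlapped as well, at 89.6 and 82.0 CPM in CNS against 79.6 and 103 CPM in ileum (−0.29, SE 0.238, adjusted p = 0.55). The heavy chain transcript was called lower in CNS, and these light chain transcripts were not. With the TMM factors applied, each CNS library was below each ileum library for Slc7a5 and Slc7a6 too.

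Among the glutamine and small neutral amino acid transporters, Slc1a5 was at 347 and 314 CPM in CNS, against 497 and 584 CPM in ileum (−0.91, SE 0.143, adjusted p = 0.0195). Slc38a1 was at 149 and 124 CPM in CNS, against 272 and 233 CPM in ileum (−1.09, SE 0.192, adjusted p = 0.0272). For both genes each CNS library was below each ileum library. The Slc1a5 call ended without ileum replicate 2 (adjusted p = 0.0658) and the Slc38a1 call without CNS replicate 2 (0.0533) or ileum replicate 1 (0.0608). Slc38a2 was at 301 and 248 CPM in CNS, against 329 and 267 CPM in ileum, which overlapped in CPM (−0.32, SE 0.191, adjusted p = 0.389). Slc1a4 had 4.04 and 0 CPM in CNS, against 0.369 and 6.87 CPM in ileum, so its replicates disagreed more than the tissues did (SE 2.66). The 0 stands in a CNS library with fewer genes detected, and allows at most 0.156 CPM.

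Slc7a1 was at 36.9 and 34.9 CPM in CNS, against 114 and 129 CPM in ileum. The groups were well apart and both were tight. Its log2 fold change of −1.96 (SE 0.234, adjusted p = 0.00892) was the most negative of the 10. Slc7a11 went the other way, at 19.1 and 18.9 CPM in CNS against 2.46 and 2.82 CPM in ileum, or 685 counts against 88. These groups did not overlap, but edgeR did not call the difference (2.65, SE 0.783, adjusted p = 0.109), while DESeq2 did (adjusted p = 0.00255). The myeloid marker Lyz2 was at 5672 and 5640 CPM in CNS, against 582 and 708 CPM in ileum, in the same libraries, and its part in the Slc7a11 difference was not tested.

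The promoter window of Slc7a11 is shown because this was the member with the highest CNS over ileum ratio, and that of Slc1a4 because it was the only other member window to hold the same element. Windows of 300 bases, 250 before to 50 after an annotated start, were taken from the RefSeq table (GRCm38.p6), in which 6 of the 10 members were matched. Slc7a5, Slc1a5, Slc38a1 and Myc had none. The element searched was TGATGNAA, the composite site bound by ATF4 with C/EBP family partners at many amino acid genes, on both strands, and its matches are in capitals. Slc7a11, chr3:50443564-50443863, minus strand, 5′ to 3′, and Slc1a4, chr11:20332664-20332963, minus strand, 5′ to 3′, read as follows.
Slc7a11: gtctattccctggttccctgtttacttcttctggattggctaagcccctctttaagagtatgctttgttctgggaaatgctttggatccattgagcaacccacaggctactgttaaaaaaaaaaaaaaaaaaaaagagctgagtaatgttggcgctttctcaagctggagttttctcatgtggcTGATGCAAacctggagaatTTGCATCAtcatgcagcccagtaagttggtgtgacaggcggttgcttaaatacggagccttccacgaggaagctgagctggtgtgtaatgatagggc
Slc1a4: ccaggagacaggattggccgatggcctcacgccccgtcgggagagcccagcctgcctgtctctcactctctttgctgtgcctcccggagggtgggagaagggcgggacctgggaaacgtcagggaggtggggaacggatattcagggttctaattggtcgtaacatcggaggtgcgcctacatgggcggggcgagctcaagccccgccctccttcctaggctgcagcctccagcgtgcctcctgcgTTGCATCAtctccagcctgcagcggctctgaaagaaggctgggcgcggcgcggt
Slc7a11 held 2 matches, which begin 66 and 47 bases before the start, and Slc1a4 held 1, across the start. Of all 32851 windows 3.97% held at least 1 match and 0.0700% held 2 or more. The windows of Slc3a2, Slc7a6, Slc38a2 and Slc7a1 held no match. The Myc and Max site CACGTG, found in 7.15% of windows, and the κB consensus, found in 4.51%, had no match in any of the 8 windows of the 6 members. A match is a description of the sequence only, and no motif here overlapped another.

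Myc was at 48.2 and 95.9 CPM in CNS, against 164 and 163 CPM in ileum. Each CNS library was below each ileum library, and the CNS replicates were far from each other, and the difference was not called (−1.37, SE 0.366, adjusted p = 0.0837). DESeq2 called it (adjusted p = 0.00633), as did edgeR without CNS replicate 2 (−2.01, adjusted p = 0.00693) and with no filter on low counts (9.33e-06). In CPM, 5 members lay wholly lower in CNS and 1 wholly higher, where 21.6% and 38.9% of all genes tested did so.

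Scaling changed the size of these differences, since it moved the median of all genes. With each library scaled by 11 T cell identity genes, that median was 0.48, and 885 genes were higher and 408 lower in CNS, against 482 and 681 with TMM. Slc3a2 (−1.32, adjusted p = 0.0085) and Slc7a1 (−1.55, adjusted p = 0.0188) were still lower. Slc1a5 (−0.51, adjusted p = 0.114) and Slc38a1 (−0.68, adjusted p = 0.0901) were no longer called, and the uncalled values of Slc7a5, Slc7a6 and Slc38a2 turned positive, at 0.048, 0.11 and 0.089. All 3 remained below the median of all genes under that scaling.

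**Figure D3:**
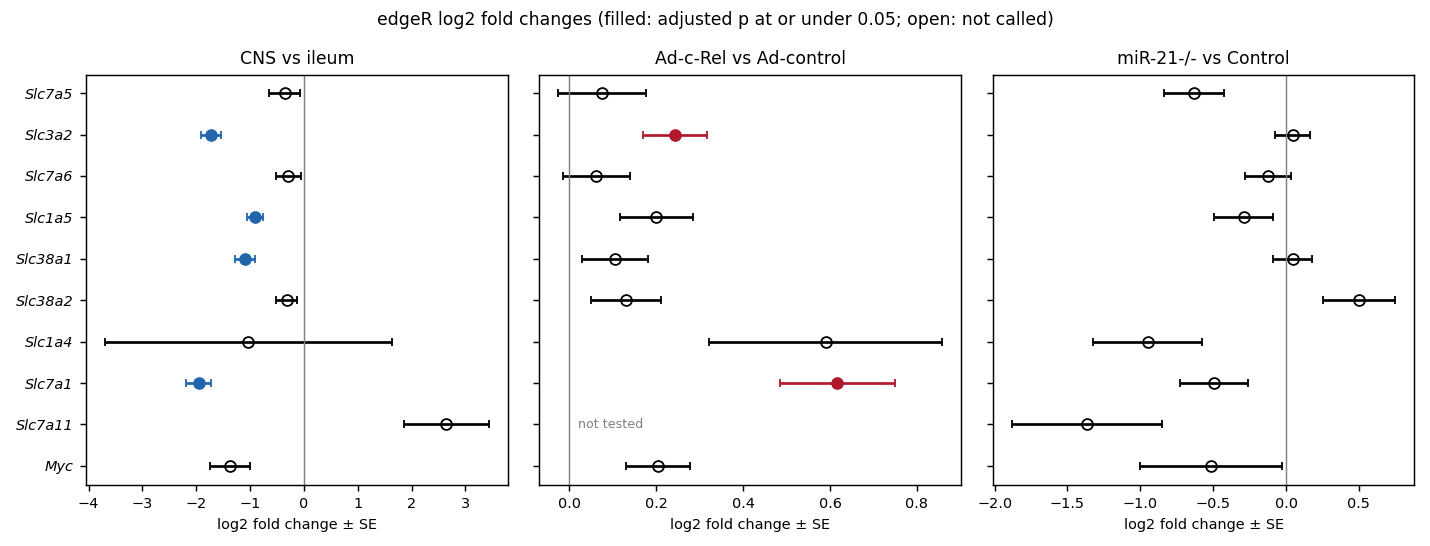
Log2 fold change with its SE for each gene in CNS over ileum, Ad-c-Rel over Ad-control and miR-21-/- over Control, each panel on its own axis, with filled points where adjusted p was at or under 0.05. The 4 filled points on the left lie between −1.96 and −0.91, the 2 in the middle at 0.24 and 0.62, and there are none on the right.

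**Figure D4:**
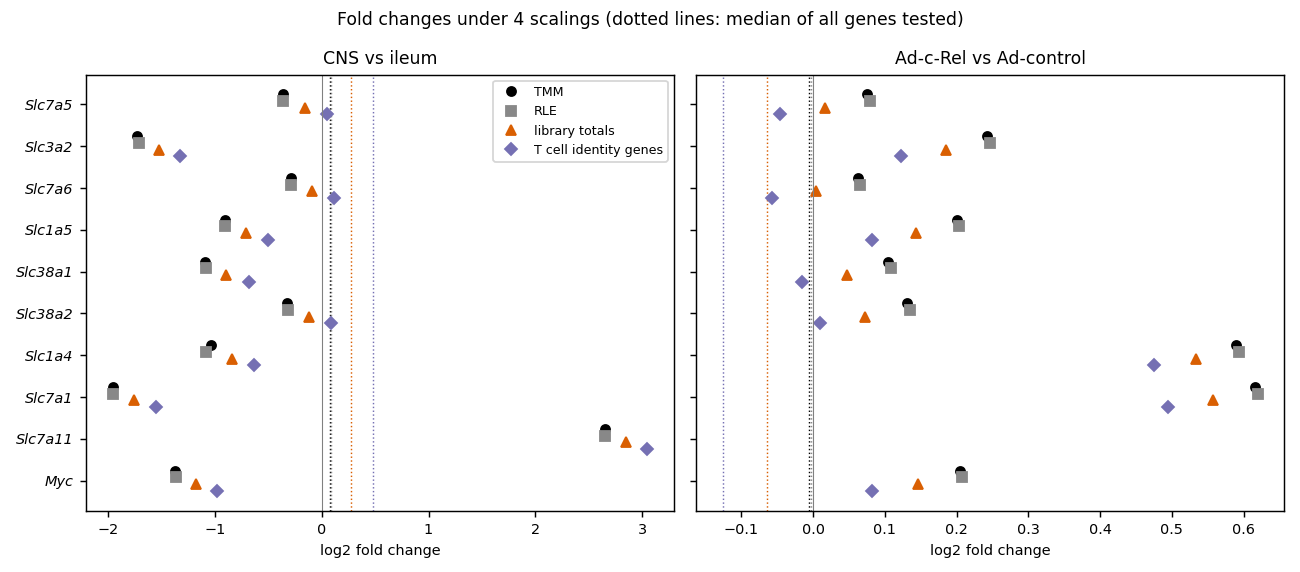
Log2 fold changes of the members under 4 scalings in CNS over ileum and in Ad-c-Rel over Ad-control, with dotted lines at the median of all genes tested under each. Scaling by T cell identity genes moves the median of all genes to 0.48 on the left and to −0.13 on the right.

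Genes around the members moved as follows in CNS. Over all 12038 genes tested 482 were higher and 681, or 5.66%, lower, beside which each list below is read. Of 17 other amino acid transporters tested, 2 were higher and 0 lower, with a list median of 1.02 beside 0.075 over all genes. These were Slc7a2, a cationic amino acid transporter, with 825 counts in the CNS libraries against 1 in the ileum libraries, and Slc1a3, a glutamate transporter of glia, with 779 counts against 3. The Slc7a2 call ended without CNS replicate 2 (adjusted p = 0.0593) and that of Slc1a3 without either CNS library (0.0931 and 0.113). Of 25 listed Myc targets 5 were lower and 0 higher (median −0.10). Scaling by T cell identity genes gave 1 lower and 2 higher, scaling by library totals gave 2 lower, and leaving out 1 library gave 2 to 4 lower. Odc1, the rate-limiting enzyme of polyamine synthesis, was at 515 and 431 CPM in CNS against 3114 and 3273 CPM in ileum (−2.96, SE 0.124, adjusted p = 0.000523). The nucleolar genes Ncl (−1.02, adjusted p = 0.0257), Nop56 (adjusted p = 0.0346) and Npm1 (−0.65, adjusted p = 0.0355) were lower too. The Npm1 call ended when any 1 library was left out (adjusted p 0.0651 to 0.0908), that of Nop56 without CNS replicate 1 (0.0624) or ileum replicate 1 (0.0709), and that of Ncl without ileum replicate 1 (0.0505).

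In the Myc network 1 of 11 genes was lower, the Max partner Mxd1 (−1.18, SE 0.226, adjusted p = 0.0348), and its call ended without ileum replicate 1 (0.0629) and under scaling by T cell identity genes (0.074). In the mTORC1 and amino acid sensing list 2 of 25 were higher, the Ragulator subunit Lamtor4 (2.41) and the translation repressor Eif4ebp1 (1.74), and 1 lower, the mTORC1 activator Rheb (−1.25, SE 0.173, adjusted p = 0.0137). The Lamtor4 call ended without CNS replicate 2 (0.101), and that of Eif4ebp1 without either CNS library (0.0858 and 0.192) or ileum replicate 2 (0.0524). Of 20 genes of the ATF4 response tested, Atf3, a stress-induced repressor, was higher (1.39, SE 0.155, adjusted p = 0.0072), and Atf4 itself (−0.99) and Herpud1 (−0.95) were lower. Neither lower call held under scaling by T cell identity genes (adjusted p = 0.105 and 0.101) or without ileum replicate 2. That of Atf4 also ended without CNS replicate 1 and under scaling by library totals (adjusted p = 0.0562).

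The second comparison sets c-Rel overexpression against its control in TH17(β) cells. Slc7a1 and Slc3a2 rose, by a small amount, and no member fell. These are 2 of 9 members tested, where 8.16% of 11711 genes were higher and 6.12% were lower by edgeR. At an unadjusted p under 0.05 no member was lower, where 13.8% of genes were, and DESeq2, which called 9.62% of the genes it adjusted, called 2 members higher and 0 lower. Slc7a11, with 2 and 1 counts with Ad-c-Rel and 0 in both Ad-control libraries, was too scarce to test. The median over the 9 members was 0.20, beside −0.0063 over all genes tested.

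Slc7a1 was at 18.3 and 17.2 CPM with Ad-c-Rel, against 13.3 and 10.9 CPM with Ad-control. The groups did not overlap, and the fold was 1.53 (log2 fold change 0.62, SE 0.133, adjusted p = 0.00561). Without Ad-control replicate 2 that call was lost (adjusted p = 0.0563). Slc3a2 was at 241 and 231 CPM with Ad-c-Rel, against 205 and 211 CPM with Ad-control, a fold of 1.18 (0.24, SE 0.0739, adjusted p = 0.0393). The adjusted p was 0.125 with Ad-control replicate 1 left out, 0.251 and 0.158 with Ad-c-Rel replicate 1 and 2 left out, 0.0852 when scaled by library totals and 0.208 by T cell identity genes. The call held with Ad-control replicate 2 left out (0.0395), under RLE scaling (0.0369) and with DESeq2 (0.0417).

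Neither light chain was called. Slc7a5 was at 32.9 and 34.3 CPM with Ad-c-Rel, against 35.0 and 31.5 CPM with Ad-control, and Slc7a6 was at 109 and 108 CPM against 107 and 109.5 CPM. Both overlapped between the groups in CPM. Their log2 fold changes of 0.076 (SE 0.101) and 0.062 (SE 0.0777) turned to −0.046 and −0.058 under scaling by T cell identity genes. Myc was at 250.2 and 252 CPM with Ad-c-Rel, against 237 and 217 CPM with Ad-control (0.20, SE 0.0737, adjusted p = 0.0779). The Ad-c-Rel libraries were both above the Ad-control libraries for Myc, and the difference missed the threshold.

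The same held for other members. Slc1a5 was at 240.1 and 255 CPM with Ad-c-Rel, against 209 and 239 CPM with Ad-control (0.20, SE 0.0849, adjusted p = 0.131), and was called without Ad-control replicate 2 (0.0286). Slc38a1, at 130.2 and 128 CPM against 125 and 125 CPM, and Slc38a2, at 88.2 and 90.5 CPM against 87.7 and 82.3 CPM, gave adjusted p of 0.39 and 0.304. Slc1a4 was at 3.47 and 3.04 CPM with Ad-c-Rel, against 1.95 and 2.51 CPM with Ad-control (0.59, SE 0.268, adjusted p = 0.159). In CPM, 7 of the 9 members lay wholly higher with Ad-c-Rel and 0 wholly lower, where 21.4% and 37.3% of all genes tested did so.

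The TH17 markers summed to 8356 and 8321 CPM with Ad-c-Rel, against 5137 and 5334 CPM with Ad-control. Of these 9 markers, 6 were called higher and 1 lower, where 8.16% and 6.12% of all genes tested were. The lower marker was Cd3e, at 167 and 179 CPM with Ad-c-Rel against 222 and 205 CPM with Ad-control. The part of these markers in the members' values was not tested. Of 25 listed Myc targets 12 were higher and 0 lower with Ad-c-Rel, with a median of 0.17, although Myc itself was not called. Scaled by T cell identity genes, 5 were higher and 1 lower, and leaving out 1 library gave 6 to 8 higher. Odc1 was at 624 and 591 CPM with Ad-c-Rel, against 355 and 306 CPM with Ad-control (0.94, SE 0.0803, adjusted p = 1.22e-06). The cyclin gene Ccnd2 (0.88), the nucleolar gene Nolc1 (0.74) and hexokinase Hk2 (0.55) followed. Of 11 Myc network genes, only Mxd3, a Max partner expressed in dividing cells, was called, at 3.93 and 3.96 CPM with Ad-c-Rel against 9.40 and 14.0 CPM with Ad-control (−1.53, SE 0.21, adjusted p = 0.00012).

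Of 21 ATF4 response genes 9 were higher and 0 lower (median 0.22), which became 4 higher under scaling by library totals or by T cell identity genes, and 3 to 7 when 1 library was left out. Over all genes tested 8.16% were higher and 6.12% lower, beside which each list here is read. Atf3 was at 12.7 and 13.9 CPM with Ad-c-Rel, against 5.32 and 4.21 CPM with Ad-control (1.55, SE 0.168, adjusted p = 1.11e-05). Asns, asparagine synthetase, was at 53.9 and 52.0 CPM with Ad-c-Rel, against 34.9 and 39.1 CPM with Ad-control (0.57, SE 0.0983, adjusted p = 0.001). The one-carbon enzyme Mthfd2 (0.41) and Herpud1 (0.31) rose as well, but the Mthfd2 call ended without Ad-c-Rel replicate 2 (adjusted p = 0.0665) and that of Herpud1 when Ad-control replicate 1 (0.172), Ad-c-Rel replicate 1 (0.0521) or Ad-c-Rel replicate 2 (0.116) was left out. Of 18 other transporters tested, the taurine transporter Slc6a6 (0.62, SE 0.0763, adjusted p = 4.41e-05) and the cationic transporter Slc7a3 (1.61, 57 counts with Ad-c-Rel against 20) rose, and Slc16a10, which carries aromatic amino acids, fell (−0.42, adjusted p = 0.0332). The Slc7a3 call ended when any 1 library was left out, and the Slc16a10 call without Ad-c-Rel replicate 2 (0.207) or either Ad-control library (0.118 and 0.0771). On the mTORC1 list 2 of 26 were higher, close to the share over all genes, and the list median was −0.057. They were Eif4ebp1 (0.34, adjusted p = 0.00561) and the leucine sensor family gene Sesn3 (0.28, adjusted p = 0.0466). The Sesn3 call ended when any 1 library was left out, and that of Eif4ebp1 without Ad-c-Rel replicate 1.

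**Figure D5:**
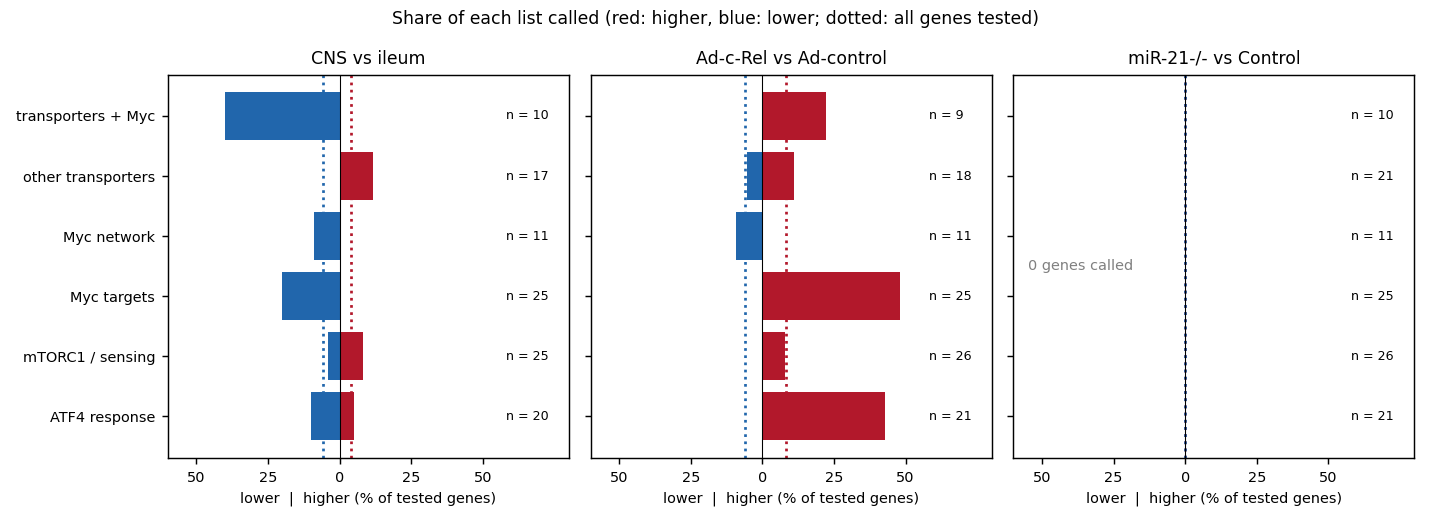
Share of the tested genes of each list called higher (red, to the right) or lower (blue, to the left) by edgeR in the 3 comparisons, with dotted lines at the share over all genes tested and n as the number tested. With Ad-c-Rel 12 of 25 Myc targets and 9 of 21 ATF4 response genes were higher, in CNS 4 of the 10 members were lower, and no gene was called in miR-21-/- cells.

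The third comparison sets TH17(23) cells that lack miR-21 against Control cells. The microRNA missing from the miR-21-/- cells is shown to define the group, with its seed (bases 2 to 8) in capitals, from RefSeq.
mmu-miR-21a-5p: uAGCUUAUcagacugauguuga
No member passed the threshold, and edgeR called 0 of 13428 genes, or 0.00%, so the count says nothing particular to the members. At an unadjusted p under 0.05 there were 2821 genes, 21.0% of those tested, and 3 of the 10 members, Slc7a5, Slc1a4 and Slc7a11, all with lower means in miR-21-/- cells, as 11.4% of genes were. DESeq2 called 803 genes, 6.63% of those it adjusted, and none of the members.

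Slc7a5 was at 81.5 and 47.2 CPM in miR-21-/- libraries, against 106 and 100.3 CPM in Control libraries. Each miR-21-/- library was below each Control library (−0.63, SE 0.209, adjusted p = 0.186). Its partner Slc3a2, at 138 and 123 CPM against 136 and 128 CPM, overlapped (0.047, SE 0.12, adjusted p = 0.841). Slc7a6 overlapped too, at 80.2 and 55.0 CPM in miR-21-/- libraries against 81.8 and 71.1 CPM in Control libraries (−0.12, SE 0.159, adjusted p = 0.671).

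Myc was at 250.3 and 78.7 CPM in miR-21-/- libraries, against 299.7 and 179 CPM in Control libraries. The replicates of each group differed more than the groups did, and miR-21-/- replicate 1 lay inside the Control range. In both groups replicate 2 was the lower, and the labels do not say whether the numbers mark a shared source. The log2 fold change of −0.51 (SE 0.488, adjusted p = 0.562) became −1.43 without miR-21-/- replicate 1 (adjusted p = 0.03) and 0.072 without miR-21-/- replicate 2. Il17a, the signature cytokine, was at 107 and 19.5 CPM in miR-21-/- libraries against 459 and 223 CPM in Control libraries, and the 9 TH17 markers summed to 1711 and 1243 CPM against 3394 and 2633 CPM. Their part in the members' values was not tested.

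Of the 4 libraries, miR-21-/- replicate 2 had the lowest CPM of each transporter except Slc38a2. Its TMM factor was the lowest as well, at 0.914 against 1.00 to 1.04 in the others. With the factors applied, it was not the lowest for Slc3a2 or Slc38a1. The share of all genes lowest in that library was not computed. Slc7a1 was at 92.7 and 53.0 CPM in miR-21-/- libraries, against 119.6 and 92.6 CPM in Control libraries (−0.49, SE 0.232, adjusted p = 0.284). Slc1a5 was at 139 and 89.8 CPM, against 166 and 124 CPM in Control (−0.29, SE 0.204, adjusted p = 0.434). Slc1a4 was at 7.30 and 3.11 CPM, against 11.8 and 8.93 CPM in Control, with no overlap (−0.95, SE 0.376, adjusted p = 0.23). Without miR-21-/- replicate 1, Slc7a5, Slc1a4 and Slc7a1 were called lower along with Myc (adjusted p 0.0225, 0.0314 and 0.0396), which rests on a single miR-21-/- library.

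The glutamine transporters of the Slc38 family were not called either. Slc38a2 was at 149.9 and 197 CPM in miR-21-/- libraries, against 112 and 146 CPM in Control libraries (0.50, SE 0.248, adjusted p = 0.303). It was the only member wholly higher in miR-21-/- cells in CPM, and with the TMM factors applied its groups overlapped. Slc38a1, at 162 and 130.4 CPM against 159.7 and 136 CPM, overlapped (0.045, SE 0.135, adjusted p = 0.868). Slc7a11 was near the detection limit, with 14 counts in miR-21-/- libraries against 41 in Control libraries (−1.37, SE 0.515, adjusted p = 0.218). In CPM, 3 members lay wholly lower and 1 wholly higher in miR-21-/- cells, where 30.6% and 23.7% of all genes tested did so.

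None of the surrounding lists had a called gene by edgeR. Those at an unadjusted p under 0.05 were 3 of 21 other transporters, 2 of 11 Myc network genes and 2 of 25 Myc targets. So were 6 of 26 mTORC1 genes and 8 of 21 ATF4 response genes, where 21.0% of all genes tested were. The fitted change was below 0 for 19 of 25 Myc targets (median −0.24, beside −0.019 over all genes) and for 16 of 21 other transporters (median −0.32). The Myc targets of smallest p were Hk2, at 193 and 215 CPM in miR-21-/- libraries against 363 and 407 CPM in Control libraries (−0.84, adjusted p = 0.129), and the cell cycle kinase gene Cdk4 (−0.52, adjusted p = 0.147). Mycn, a Myc relative, was at 1.72 and 0.732 CPM against 5.74 and 3.87 CPM in Control (−1.92, adjusted p = 0.135), and Mycl was at −0.78. On the other lists the genes of smallest p were Slc7a3 (−0.89) and Slc16a10 (0.54), the Rag GTPase gene Rraga (−1.06) and the folliculin gene Flcn (0.59), and Atf3 (−0.88) and Trib3 (−0.69), with adjusted p from 0.125 to 0.2. DESeq2 called 5 of the genes named here, Hk2, Mycn, Rraga and Atf3 lower and Flcn higher (adjusted p 0.000622 to 0.031).

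The 3 comparisons share no libraries. Slc3a2 had log2 fold changes of −1.72 in CNS, 0.24 with Ad-c-Rel and 0.047 in miR-21-/- cells. Slc7a5 was called in none of them, with values of −0.36, 0.076 and −0.63. Slc7a1 had −1.96, 0.62 and −0.49, and Myc −1.37, 0.20 and −0.51. Whether the size of a change differed between comparisons was not tested, since each sets a different pair of conditions apart.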

How the data were processed

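RNA was measured in 12 libraries, 2 in each of 6 groups taken from the sample titles. Each deposited file gives unnormalized counts for 1 library, 1 line per gene symbol. Tools credited in the submitters' processing notes are TopHat2 2.1.0, HTSeq 0.11.0, Trim Galore 0.4.4, CASAVA 1.4 and the mm10 build among others, with no role or order. No source used here gives the annotation or the strand setting, so genes that overlap on the other strand cannot be told apart. Lines that name no gene (14.7% to 26.1% of a table) were left out, and CPM was computed over gene counts. The line for reads with several alignments was 0 in the miR-21 cultures and up to 3.52% elsewhere. The 8 ATAC-seq samples were not analysed here. The values of 1 marker gene are not reported here.

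The 4 libraries of each pair entered a separate two-sided quasi-likelihood F test in edgeR 4.0.16 (R 4.3.3) after filterByExpr and TMM, with Benjamini-Hochberg adjustment over all genes tested and a threshold of 0.05. SEs were taken as |log2 fold change| divided by √F. Alternatives were RLE, library totals and T cell identity scaling, DESeq2 1.42.0, other filters, 1 fit of 12 libraries, the replicate number as a block, and each library left out. Floors of 3 counts cover counting error only. The members, gene lists, tests and naming rule were chosen with earlier results of these data known, and the alternatives were applied to the further lists after their values were seen. Named genes were the members, up to 4 called genes of smallest p per list (the 2 of smallest p where none was called), the altered genes and marker genes. No replicate pair matched within sampling noise, at 4.60 to 67.8 chi-square units per degree of freedom.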

Additional observations from a re-analysis of the deposited data

How the results depend on the processing

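Of the members' values under the alternatives in CNS against ileum, 104 kept their direction and side of the threshold. There 4 turned sign, 5 lost a call and 6 gained one. In Ad-c-Rel against Ad-control 93 kept both, 3 turned sign, 8 lost a call and 3 gained one. In miR-21-/- against Control 100 kept both, 6 turned sign and 11 gained a call. Slc3a2 and Slc7a1 stayed lower in CNS under all 12 alternatives. Scaled by T cell identity genes, lower members in CNS numbered 2, members higher with Ad-c-Rel 1, and called genes in miR-21-/- cells 3, and the sign turned for Slc7a5 (0.048), Slc7a6 (0.11) and Slc38a2 (0.089) in CNS and for Slc7a5 (−0.046), Slc7a6 (−0.058) and Slc38a1 (−0.015) with Ad-c-Rel. Scaled by library totals, 1 member was higher with Ad-c-Rel, Slc3a2 (−0.018) and Slc38a1 (−0.017) turned in miR-21-/- cells, and 55.7% of calls in CNS and 39.4% with Ad-c-Rel were higher, against 41.4% and 57.1% with TMM, and 68.4% and 24.8% with the T cell identity genes. With no filter on low counts 2413 genes were called in CNS and 40 in miR-21-/- cells. DESeq2 called 2540 genes in CNS, with 1 member higher (Slc7a11), 1067 with Ad-c-Rel and 803 in miR-21-/- cells, against 1163, 1673 and 0 by edgeR. A fit over 12 libraries called 4000 genes in CNS with 1 member higher, 19 genes with Ad-c-Rel with 0 members higher, and 1 gene in miR-21-/- cells. The cause of these shifts was not tested.

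Leaving out 1 library gave 893 to 1922 called genes in CNS (most without ileum replicate 1), 926 to 1369 with Ad-c-Rel with 1 to 2 members higher, and 3 to 1327 in miR-21-/- cells with 0 to 4 members lower (most without miR-21-/- replicate 1). It moved Slc1a4 in CNS between −9.08 and 2.19, and in miR-21-/- cells Slc38a1 between −0.018 and 0.13, Slc7a6 between −0.31 and 0.069 and Myc between −1.43 and 0.072. Where it leaves a group with 1 library, that library is assumed to vary like the others.

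With the replicate block, 2802 genes were called with Ad-c-Rel, 4 members among them higher (Slc3a2, Slc7a1, Slc1a5 and Myc). The last 2 were not called without the block when all 4 libraries were kept. In CNS Myc was called lower with the block (−1.46, adjusted p = 0.0441), while the count of genes stayed within 1.5 times. In miR-21-/- cells no member was called without the block when all 4 libraries were kept. The block called 4807 genes there, with 1 member higher, Slc38a2 (adjusted p = 0.00147). It called 6 lower, Slc7a5 (0.000733), Slc7a1 (0.00117), Slc1a4 (0.0015), Myc (0.00303), Slc1a5 (0.024) and Slc7a11 (0.0447). The labels do not say that a number marks a shared animal or day. Deviations of same-numbered libraries correlated at 0.107, 0.0432 and 0.563 in the 3 pairs, and with 2 numbers a pair this does not settle whether the numbers mark shared sources. Low levels limit Slc1a4 and Slc7a11, at most 11.8 and 19.1 CPM in any library.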
